A study of Bos taurus with 138 samples.

Results

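The enzymes of glycolysis, the pentose phosphate pathway and the citrate cycle were followed from the bovine oocyte to the blastocyst. They were chosen as a list of 44 gene symbols, of which 17 belong to glycolysis with lactate dehydrogenase, 6 to the pentose phosphate pathway and 21 to the citrate cycle with its pyruvate entry and its cytosolic partners. All 44 were present among the 16706 genes of the count table, and all 44 passed the filter on low counts that left 14612 genes for the test. Oocytes came from slaughterhouse Bos taurus ovaries, were matured in vitro and were fertilised in vitro with the semen of a single bull. At each of 6 stages (GV oocyte, MII oocyte, 2-cell, 8-cell, morula and blastocyst) 2 sucrose gradients, A and B, were loaded with lysate of pooled oocytes or embryos in cycloheximide, which holds ribosomes on mRNA. Each gradient was collected as 10 fractions, F1 (light) to F10 (heavy), and every fraction was sequenced. From other pooled oocytes or embryos of the batches that went into the gradients, 3 transcriptome libraries per stage, A to C, were made without fractionation. The study's methods describe capture and amplification of mRNA for the fractions and the transcriptomes alike. Before collection the study also added cycloheximide to the culture of the living oocytes and embryos, and it then removed the zona with protease. No group carried a further treatment or a genetic change, and the stages were the only difference the labels give. Here the reads of F8, F9 and F10, where mRNA carrying several ribosomes sediments, were summed per gradient and are called polysomes.

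Glycolysis splits glucose to pyruvate in the cytosol and yields ATP and NADH. Its pyruvate is either reduced to lactate or carried into mitochondria, where the pyruvate dehydrogenase complex turns it to acetyl-CoA for the citrate cycle. The pentose phosphate pathway branches off at glucose phosphate and yields NADPH and the ribose for nucleotides. Cleavage-stage mammalian embryos are known for using pyruvate and lactate rather than glucose, and for taking up glucose mainly from compaction onward. The bovine embryonic genome is activated in the main around the 8-cell stage, so transcripts of the earlier stages are largely maternal.

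The polysome pools held 22543733 to 39380640 reads and the transcriptomes 3269385 to 11812541. Values are CPM, the reads of a gene scaled to a common library size, which give a gene's share of the RNA in a library and not its amount per embryo. A lower share cannot be told apart from a constant amount in a library where other RNAs rose, and in blastocysts fewer cells of a type and less RNA per cell cannot be told apart. The stages carried their own markers: the summed level of 11 oocyte genes was 10737 to 12327 CPM in 2-cell transcriptomes and 355 to 723 CPM in 8-cell transcriptomes. In polysomes the same sum was 23223 and 24370 CPM at the 2-cell and 4755 and 3199 CPM at the 8-cell stage. A list of 10 trophectoderm and inner cell mass genes, of which 9 are in the table, summed to 5086 to 5940 CPM in blastocyst transcriptomes and to 54.2 to 63.6 CPM in those of GV oocytes. A list of 14 cumulus and granulosa cell genes summed to 530 to 663 CPM in GV transcriptomes and to 647 and 1244 CPM in MII polysomes. In the 8-cell transcriptomes A, B and C it summed to 587, 234 and 250 CPM.

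The 8-cell transcriptome A stood apart. Its 13 mesenchymal and fibroblast markers summed to 11537 CPM, against 2019 CPM in B, 1605 CPM in C and 464 and 730.2 CPM in the 8-cell polysomes. At the other 5 stages the same list summed to 39.4 to 209 CPM in the transcriptomes and to 23.1 to 119 CPM in the polysomes. LUM, a collagen-binding proteoglycan of connective tissue, was at 8104, 1689.6 and 1081 CPM in A, B and C, and POSTN, a matrix protein of fibroblasts, at 1959, 125 and 297 CPM. The 17 glycolytic members summed to 17492 CPM in A against 5585 CPM in B and 7361 CPM in C. A was the highest of the 3 libraries for 16 of the 17 glycolytic members and more than 2-fold above both others for 11 of them. Of the 6 pentose phosphate members A was highest for 2, and of the 21 citrate cycle members for 12. The study names TAGLN, a gene of this marker list, among those with abundant protein and high transcript levels in 8-cell embryos. Whether the marker RNA came from the embryos or from other cells was not tested, nor was its part in the 8-cell results. The counts over all members and the pathway medians that rest on library A are given with and without it.

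**Figure D1:**
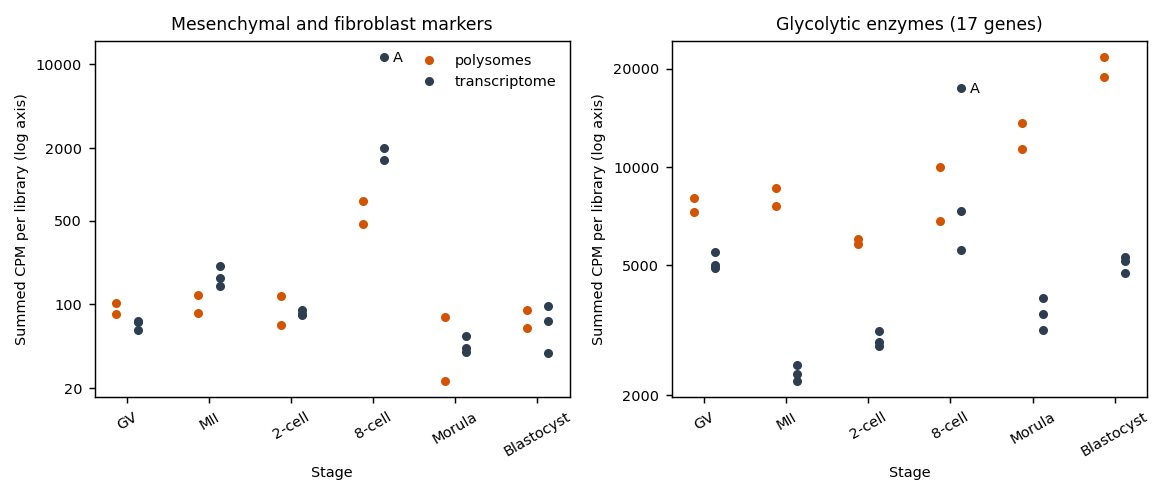
Summed CPM of the 13 mesenchymal and fibroblast markers (left) and of the 17 glycolytic members (right) at the 6 stages, with 1 point per polysome pool or transcriptome and log axes. The 8-cell transcriptome labelled A holds 11537 CPM of the markers and 17492 CPM of the glycolytic members, both above the other 8-cell libraries.

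Which of these mRNAs were over- or under-represented on polysomes relative to the transcriptomes at each stage was the first question. Glycolytic and pentose phosphate mRNAs were mostly higher in the polysomes than in the transcriptomes, except for glycolysis at the 8-cell stage. The citrate cycle was split between both directions, as was glycolysis in 8-cell embryos. With edgeR's quasi-likelihood test and an adjusted p under 0.05, 19 members were higher and 9 lower in the polysomes of GV oocytes, where 22.2% of all genes tested were higher and 17.7% lower. In MII oocytes 24 members were higher and 14 lower, against 30.8% and 26.7% of all genes. In 2-cell embryos 22 were higher and 12 lower (29.1% and 21.9% of all genes), and in 8-cell embryos 15 and 14 (28% and 31%). In morulae 20 were higher and 7 lower (26.5% and 25.2%), and in blastocysts 18 and 10 (20% and 20.1%). Without the 8-cell transcriptome A the 8-cell counts were again 15 and 14. Another scaling moved the median of all genes by up to -0.34 (library totals, morulae and blastocysts), with 19 members higher and 9 lower in morulae and 15 and 11 in blastocysts. The values of pools and transcriptomes did not overlap for 40 members at the GV stage, with the pools above for 25 and below for 15, against 36.4% and 35.8% of all genes. The counts above and below were 23 and 15 at MII (37.4% and 37.3% of all genes), 24 and 14 at 2-cell (40.4% and 34%), 16 and 14 at 8-cell (27% and 37.1%), 23 and 11 at the morula (28.3% and 33.6%) and 22 and 16 at the blastocyst stage (30.2% and 30.9%). Without transcriptome A the 8-cell counts were 21 and 14.

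The median log2 difference of the 17 glycolytic members was 1.56, 2.28, 2.16, 0.06, 1.94 and 1.41 from GV oocytes to blastocysts. For the 6 pentose phosphate members it was 1.36, 2.09, 2.16, 1.55, 1.22 and 0.79, and for the 21 citrate cycle members -0.16, 0.29, -0.02, -0.77, 0.22 and -0.78. Over all genes tested the median lay between -0.26 and 0.18. Glycolysis was thus above the median of all genes at every stage, by the least at the 8-cell stage. Without the 8-cell transcriptome A its 8-cell median was 0.67, with 5 members higher and 5 lower in place of 4 and 5, and the 8-cell medians of the pentose phosphate pathway and the citrate cycle were 1.47 and -0.57.

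Every member was called at 1 stage or more. Of the 44, 24 were called only as higher in the polysomes, 15 only as lower, and 5 (PFKM, PGK1, RPIA, CS and ACLY) as higher at some stages and lower at others. GPI, ALDOA, ALDOC, PGLS, PC, IDH2 and MDH2 were higher at all 6 stages. RPE, DLD, IDH3A and SUCLA2 were lower at all 6. How many of all genes tested follow each of these patterns was not counted, so the patterns are not read as particular to the members.

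**Figure D2:**
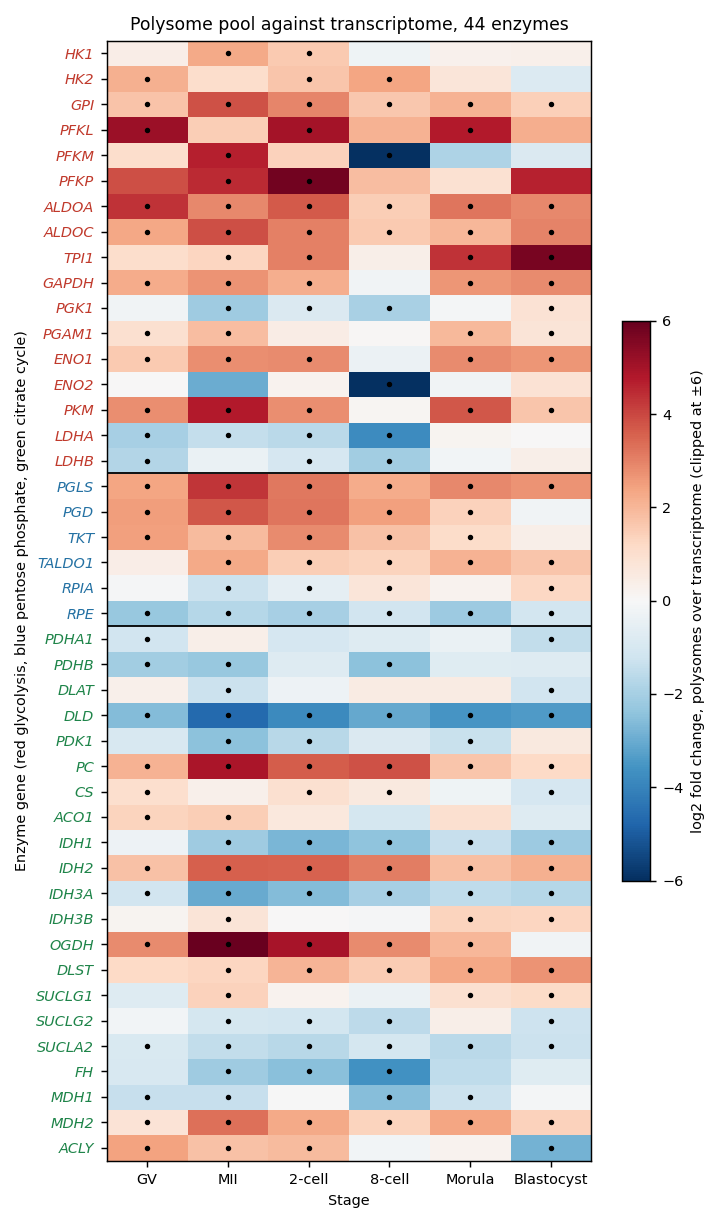
Log2 difference between polysomes and transcriptomes for the 44 members (rows, by pathway) at the 6 stages (columns), coloured red where higher in polysomes and blue where lower, with a dot where the adjusted p is under 0.05. GPI, ALDOA, ALDOC, PGLS, PC, IDH2 and MDH2 are higher in polysomes at every stage and RPE, DLD, IDH3A and SUCLA2 lower at every stage.

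The gradients and the transcriptomes were separate preparations, so the lighter fractions give a side-by-side measure against the same transcriptomes. Pools of F3 to F5 had glycolytic medians of 2.29, 2.59, 2.48, -0.09, 1.73 and 0.98 from GV oocytes to blastocysts, and pools of F1 and F2, the lightest fractions, had 1.62, 2.26, 2.24, -1.17, 1.35 and 1.44. Without transcriptome A the 8-cell values were 0.23 and -0.62. Up to the 2-cell stage the glycolytic median thus lay between 1.56 and 2.59 in all 3 parts of the gradient. The pentose phosphate medians parted later: in morulae they were 1.22 in F8 to F10, -0.2 in F3 to F5 and -0.25 in F1 and F2. GPI ranged over the stages from 1.41 to 3.83 in F8 to F10, from 1.25 to 4.23 in F3 to F5 and from 0.69 to 3.55 in F1 and F2. DLD ranged from -4.66 to -2.6, from -5.34 to -3.58 and from -8.95 to -1.99. These 3 sets of values share the transcriptome libraries. Polysomes against transcriptomes gave 28, 38, 34, 29, 27 and 28 calls from GV oocytes to blastocysts. Heavy against light pools of the same gradients, in a separate fit given below, gave 0, 1, 0, 11, 5 and 2. That fit also called few of all genes, from 0% in 2-cell embryos to 4.55% higher and 4.8% lower in 8-cell embryos. The fit against transcriptomes called 20% to 30.8% of all genes higher and 17.7% to 31% lower, so the counts of the fits cannot be set against each other. Because the lighter pools also differed from the transcriptomes, such a difference is not by itself one between polysomes and lighter fractions. How far the preparation of the libraries contributed to the difference was not tested.

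Among the enzymes of the hexose steps, 5, 6, 7, 4, 4 and 3 of 8 members were higher in polysomes from GV oocytes to blastocysts, and PFKM in 8-cell embryos was the only one called lower. Without transcriptome A the 8-cell count was 5. Of all genes tested, 22.2%, 30.8%, 29.1%, 28%, 26.5% and 20% were higher at the same stages. PFKL, a subunit of phosphofructokinase at the committed step, was at 14.5 and 5.54 CPM in the GV polysomes and 0.228, 0 and 0.608 CPM in the transcriptomes, a log2 difference of 5.14 ± 1.21 (SE, adjusted p = 0.00153). In morulae it was at 23.7 and 163 CPM against 3.45, 4.65 and 2.26 CPM (4.75 ± 1.09 SE). At both stages the pools lay above all 3 transcriptomes. ALDOA, an aldolase that splits the fructose bisphosphate, was at 344 and 389 CPM in GV polysomes and 20.4, 14.6 and 18.9 CPM in the transcriptomes, a difference of 4.35 ± 0.36 (SE, adjusted p = 2.78e-09). PFKP, another phosphofructokinase subunit, had its largest difference in 2-cell embryos, at 6.14 and 14.6 CPM against 0, 0.0799 and 0.451 CPM (5.81 ± 1.98 SE, adjusted p = 0.0175). PFKP and PFKL had 7 reads each over all 2-cell transcriptomes, and the PFKP call was lost without the 2-cell gradient B or the 2-cell transcriptome A or B (5.04 to 5.48). PFKM, the muscle-type subunit, had 0 reads in both 8-cell pools and was at 4.8, 1.34 and 2.26 CPM in the transcriptomes. With a floor of 3 counts per library this is at least 27.4-fold lower, and at least 17.6-fold without transcriptome A. The absence was not shared by the lighter fractions of these gradients, where PFKM reached 70.8 and 24.1 CPM in F5. The 8-cell pool of F3 to F5 was above the transcriptomes by 2.39 ± 0.94 (SE). Its call as higher, in MII oocytes, rested on gradient B, where the pools held 0.0360 and 6.11 CPM and the transcriptomes 0.229, 0 and 0.119 CPM (4.68 ± 1.79, and -1.51 without B).

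Of the 7 members of the triose steps, 4, 5, 4, 0, 5 and 6 were higher in polysomes from GV oocytes to blastocysts. The shares of all genes were 22.2%, 30.8%, 29.1%, 28%, 26.5% and 20%. The 8-cell stage was thus the only one with none of these members higher. GAPDH, which oxidises the triose phosphate and reduces NAD, was at 3239.6 and 3486 CPM in MII polysomes and 532, 578 and 435 CPM in MII transcriptomes (2.71 ± 0.4 SE, adjusted p = 3.64e-06). TPI1, which interconverts the triose phosphates, was at 804 and 775 CPM in blastocyst polysomes and 10.3, 22.6 and 13.2 CPM in the transcriptomes, a difference of 5.68 ± 0.55 (SE, adjusted p = 2.96e-08), the largest of any member at that stage. In morulae TPI1 was at 164 and 69.4 CPM against 2.24, 10.3 and 4.96 CPM (4.32 ± 0.52 SE). The pools were above every transcriptome in each of these cases. PKM, the pyruvate kinase that ends the chain, differed by 4.74 ± 0.49 in MII oocytes and 3.71 ± 0.47 in morulae. In 8-cell embryos the differences of GAPDH, ENO1, PKM, TPI1 and PGAM1 were -0.2, -0.33, 0.1, 0.33 and 0.06, none called, and without transcriptome A those of GAPDH, ENO1, PKM and TPI1 were 0.67, 0.54, 0.7 and 1.02, again none called.

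PGK1, which makes ATP from the bisphosphoglycerate, went the other way from its neighbours. Its MII polysomes held 12.5 and 7.76 CPM and its MII transcriptomes 33.5, 55.7 and 43.5 CPM, a difference of -2.13 ± 0.37 (SE, adjusted p = 3.05e-05), and it was also lower at the 2-cell (-0.85) and 8-cell (-1.95) stages, but higher in blastocysts (0.86). ENO2, an enolase known from neurons, was at 0 in every GV library and had 0 reads in both 8-cell pools, at least 12.7-fold lower than its transcriptomes (9.39-fold without A), where it was at 1.97, 0.179 and 1.74 CPM. Among single 8-cell fractions ENO2 was at 0 CPM in all of gradient A and at 227.5 CPM in F1 of gradient B. Both lactate dehydrogenase genes were lower in polysomes in GV oocytes and in 2-cell and 8-cell embryos. LDHA, the subunit that favours lactate formation, was at 132 and 151 CPM in 8-cell polysomes and 3479, 894 and 1485 CPM in the transcriptomes (-3.79 ± 0.45 SE, adjusted p = 2.25e-07), and its difference without transcriptome A was -3.07. LDHB, the subunit that favours pyruvate formation, was at 191 and 156 CPM against 965, 649 and 585 CPM (-2.08 ± 0.4 SE, adjusted p = 1.16e-04). In morulae and blastocysts neither was called, with LDHA at 0.17 and 0.04 and LDHB at -0.16 and 0.35.

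Of the pentose phosphate members, both oxidative enzymes were higher in polysomes at every stage up to the morula. PGD, the phosphogluconate dehydrogenase that yields NADPH, was at 2545 and 2036 CPM in MII polysomes and 178, 184 and 164 CPM in MII transcriptomes, a difference of 3.71 ± 0.26 (SE, adjusted p = 2.48e-11). The MII pools were more than 10-fold above each transcriptome. Its difference narrowed to 1.36 ± 0.24 in morulae and was -0.21 ± 0.25 (SE, adjusted p = 0.522) in blastocysts, where the pools held 309.8 and 280.5 CPM and the transcriptomes 312, 373 and 340.1 CPM. PGLS, the lactonase of the same branch, differed by 2.22 to 4.28 over the stages. In the non-oxidative branch, TKT (transketolase) was higher up to the morula, with 1845 and 1682 CPM in 8-cell polysomes against 404, 608 and 529 CPM (1.78 ± 0.27 SE, adjusted p = 7.92e-06), and TALDO1 (transaldolase) from MII oocytes onward, with 2.28 ± 0.23 in MII oocytes and 2.11 ± 0.22 in morulae. RPE, the ribulose phosphate epimerase, was lower at all 6 stages, by the most in GV oocytes, where the pools held 23.8 and 21.8 CPM and the transcriptomes 101, 114 and 112 CPM (-2.26 ± 0.37 SE, adjusted p = 3.38e-05). RPIA, the isomerase beside it, changed side, from -1.27 ± 0.23 in MII oocytes to 1.23 ± 0.22 in blastocysts.

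The pyruvate entry was the only part of these pathways with a median below 0 in polysomes at all 6 stages, between -1.78 and -0.57 for its 6 members. DLD, the dihydrolipoyl dehydrogenase that the pyruvate and the oxoglutarate dehydrogenase complexes share, had the lowest difference of all members at every stage but the 8-cell stage. It was at 8.18 and 3.15 CPM in MII polysomes and 144, 139.6 and 147 CPM in the transcriptomes (-4.66 ± 0.72 SE, adjusted p = 6.31e-06), and at 5.39 and 6.64 against 91.1, 93.1 and 68.5 CPM in 2-cell embryos (-3.81 ± 0.68 SE). No pool reached the lowest transcriptome in either. PDHB, the beta subunit of pyruvate dehydrogenase, was lower in GV (-2.11 ± 0.47 SE), MII (-2.27 ± 0.47 SE) and 8-cell samples (-2.44 ± 0.47 SE). PDHA1, the alpha subunit, was lower in GV oocytes (-1.17 ± 0.44 SE) and blastocysts (-1.48 ± 0.45 SE), and DLAT, the acetyltransferase, in MII oocytes and blastocysts. PDK1, a kinase that inhibits the complex, was lower in MII oocytes, at 13.1 and 14.2 CPM against 82.7, 66.9 and 76.5 CPM (-2.47 ± 0.47 SE, adjusted p = 9.76e-05), in 2-cell embryos and in morulae. The exception in this group was PC, pyruvate carboxylase, which makes oxaloacetate from pyruvate. It was at 105 and 82.4 CPM in MII polysomes against 2.86, 4.76 and 1.67 CPM (4.91 ± 0.5 SE, adjusted p = 1.38e-08) and at 327 and 806 against 37.01, 45.3 and 39.2 CPM in 8-cell embryos (3.8 ± 0.47 SE, adjusted p = 3.92e-07).

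Within the mitochondrial cycle, members divided by enzyme. OGDH, the first subunit of the oxoglutarate dehydrogenase complex, had the largest difference of all members in MII oocytes, with 219 and 115 CPM in polysomes and 2.18, 3.04 and 2.85 CPM in the transcriptomes (5.95 ± 0.51 SE, adjusted p = 8.22e-10). Its difference was 2.86 ± 0.45 in GV oocytes, 4.95 ± 0.49 in 2-cell embryos, and -0.22 ± 0.45 (SE, adjusted p = 0.737) in blastocysts. IDH2, the mitochondrial NADP-linked isocitrate dehydrogenase, differed by 1.75 to 3.57 over the stages, and in 8-cell embryos its pools held 173 and 314 CPM and its transcriptomes 30.6, 21.1 and 36.3 CPM (3.05 ± 0.5 SE, adjusted p = 1.94e-05). MDH2, the mitochondrial malate dehydrogenase, differed by 0.81 to 3.31. On the low side, IDH3A, the alpha subunit of the NAD-linked isocitrate dehydrogenase, was at 11.5 and 8.76 CPM in MII polysomes against 85.4, 79.4 and 81.0 CPM (-3.02 ± 0.35 SE, adjusted p = 9.75e-08). SUCLA2, a beta subunit of succinyl-CoA ligase, differed by -1.66 to -0.9. SUCLG2, the alternative beta subunit, was lower in MII oocytes, 2-cell and 8-cell embryos and blastocysts. FH, fumarase, was lower in MII oocytes (-2.14), 2-cell (-2.5) and 8-cell embryos (-3.63). IDH3B, DLST and SUCLG1 were called only as higher, DLST from MII oocytes onward, IDH3B and SUCLG1 in MII oocytes, morulae and blastocysts. CS, citrate synthase, was higher in GV oocytes (1.02 ± 0.24 SE), 2-cell and 8-cell embryos and lower in blastocysts (-1.0 ± 0.25 SE).

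The cytosolic enzymes differed by gene. IDH1, the cytosolic isocitrate dehydrogenase, was at 13.7 and 9.94 CPM in 2-cell polysomes and 90.2, 77.5 and 70.6 CPM in the transcriptomes (-2.75 ± 0.37 SE, adjusted p = 1.63e-06), and was lower from MII oocytes onward. MDH1, the cytosolic malate dehydrogenase, was lower in GV and MII oocytes, 8-cell embryos (-2.55 ± 0.39 SE) and morulae. ACLY, which cleaves citrate to acetyl-CoA for fatty acid synthesis, was higher in GV oocytes, with 436 and 321 CPM against 80.6, 55.4 and 79.9 CPM (2.4 ± 0.28 SE, adjusted p = 3.44e-07), and lower in blastocysts, with 147 and 135 CPM against 661, 1062 and 1248 CPM (-2.81 ± 0.32 SE, adjusted p = 2.66e-07). The pools lay above every transcriptome at the first of these stages and below every transcriptome at the other. ACO1, the cytosolic aconitase that also binds mRNA as an iron regulatory protein, was higher in GV (1.35) and MII oocytes (1.48).

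How the transcriptome of these pathways moved from stage to stage was compared next, with calls at an adjusted p under 0.05 and a change above 2-fold. During maturation, from GV to MII, 4 members rose and 15 fell, against 6.61% and 10.5% of all genes. The members that rose were RPIA, PDK1, IDH1 and SUCLG2, by 1.02 to 1.47 on the log2 scale. MDH2 fell most, from 259, 233 and 243 to 37.1, 27.8 and 20.7 CPM (-3.1 ± 0.3 SE, adjusted p = 4.36e-08), followed by LDHB (-2.8 ± 0.35 SE) and PGLS (-2.56 ± 0.36 SE). With library totals as the only scaling 0 rose and 16 fell, a setting that moves the median of all genes by -0.29. From MII to 2-cell, 3 rose and 2 fell, against 6% and 5.96% of all genes: OGDH, SUCLG1 and MDH2 rose by 1.32, 1.41 and 1.29, and TPI1 and PDHB fell (-1.48 and -1.64). Without the MII transcriptome C, or without the 2-cell transcriptome C, 3 members were called in place of 5, and with totals as the only scaling, which moved the median of all genes by 0.47, 8 rose and 0 fell.

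From 2-cell to 8-cell, the interval of genome activation, 30 members rose and 6 fell in the transcriptome, against 26.6% and 23.5% of all genes. In glycolysis 14 of 17 members rose and 0 fell, with a median of 3.0. In the pentose phosphate pathway 4 rose and 2 fell (median 1.42), and in the citrate cycle 12 rose and 4 fell (median 1.39). Without the 8-cell transcriptome A, 26 rose and 7 fell, with glycolysis at 12 and 0 (median 2.76), the pentose phosphate pathway at 4 and 2 (median 1.51) and the citrate cycle at 10 and 5 (median 0.98). The 3 glycolytic members outside the calls were HK1 (0.05), PFKM (2.18) and LDHA (0.06).

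TKT had the largest change of all members. It was at 4.41, 2.24 and 3.38 CPM in 2-cell transcriptomes and 404, 608 and 529 CPM in 8-cell transcriptomes, a log2 change of 7.26 ± 0.33 (SE, adjusted p = 1.22e-13). In GV and MII oocytes it was at 8.58, 7.79 and 6.99 CPM and 2.06, 2.13 and 3.69 CPM, and in morulae and blastocysts at 771, 689 and 552 CPM and 778, 559 and 646 CPM. All 9 libraries from the 8-cell stage on were thus above all 9 earlier ones. Its oxidative partner PGD moved the other way, from 146, 154 and 154 to 89.1, 61.7 and 63.4 CPM (-1.08 ± 0.22 SE, adjusted p = 3.36e-04), and back to 216, 182 and 153 CPM in morulae (1.36 ± 0.23 SE). RPIA fell and returned likewise (-1.42 ± 0.2, then 1.47 ± 0.21), while PGLS (2.17), TALDO1 (1.42) and RPE (1.43) rose.

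In glycolysis PFKL, PGK1 and PFKP had the largest rises with all 3 libraries, and HK2, PGK1 and ENO2 without the 8-cell transcriptome A (5.26, 5.1 and 4.9). PFKL rose from 0.380, 0 and 0.150 to 23.05, 3.85 and 5.57 CPM (5.87 ± 1.22 SE, adjusted p = 3.4e-04), PGK1 from 30.05, 18.2 and 22.8 to 1750.2, 776 and 852 CPM (5.57 ± 0.37 SE, adjusted p = 3.46e-11) and PFKP from 0, 0.0799 and 0.451 to 14.9, 3.14 and 4.7 CPM (5.36 ± 1.9 SE, adjusted p = 0.0214). The groups did not overlap for any of the 3. Without transcriptome A the rise of PFKL was 4.67, and the PFKP call was lost without the 2-cell transcriptome A or B or the 8-cell transcriptome A (4.41 to 5.03). HK2, the hexokinase linked to growing cells, rose from 0.913, 3.12 and 1.2 to 44.2, 74.2 and 59.2 CPM (5.08 ± 0.67 SE, adjusted p = 1.04e-06). HK1, the hexokinase of most tissues, was at 51.6, 52.7 and 62.7 CPM in 2-cell and 94.2, 32.97 and 45.4 CPM in 8-cell transcriptomes, with overlapping values. GAPDH rose from 502, 505 and 360.0 to 5009.5, 1182 and 1684 CPM (2.53 ± 0.38 SE, adjusted p = 6.1e-06), with library A the highest, and by 1.65 without A. LDHB rose from 108, 100.1 and 66.5 to 965, 649 and 585 CPM (3.0 ± 0.35 SE, adjusted p = 2.24e-07). LDHA was at 1995, 1796 and 1812 CPM before and 3479, 894 and 1485 CPM after, with the values overlapping and a change of -0.65 without A.

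In the citrate cycle IDH2, IDH3B and PDHB rose most. IDH2 rose from 0.609, 0.480 and 0.0752 to 30.6, 21.1 and 36.3 CPM (6.22 ± 0.59 SE, adjusted p = 7.85e-09), IDH3B from 6.01, 6.23 and 2.93 to 182, 123 and 128 CPM (4.84 ± 0.31 SE, adjusted p = 2.54e-11) and PDHB from 7.23, 4.8 and 7.37 to 157, 119.8 and 116 CPM (4.34 ± 0.44 SE, adjusted p = 2.33e-08). Every 8-cell library was above every 2-cell library for all 3. PDHA1 rose by a smaller amount, from 22.8, 30.1 and 17.6 to 65.9, 72.6 and 45.7 CPM (1.39 ± 0.39 SE, adjusted p = 0.00478), and again to 158, 221 and 163 CPM in morulae and 362, 479.8 and 501 CPM in blastocysts. IDH1 rose from 90.2, 77.5 and 70.6 to 178, 107 and 204 CPM and then to 616, 577 and 507 CPM (1.04 ± 0.3, then 1.8 ± 0.31), and without the 2-cell transcriptome C or the 8-cell transcriptome A or C its first rise was 0.96, 0.97 and 0.85 and under 2-fold. The 4 that fell were PDK1, CS, DLST and SUCLG2. PDK1 fell from 71.6, 91.7 and 62.9 to 36.2, 17.02 and 29.9 CPM (-1.44 ± 0.39 SE, adjusted p = 0.00344), and CS from 389, 345 and 469 to 165, 185 and 182 CPM (-1.18 ± 0.22 SE, adjusted p = 1.16e-04) before it returned to 414, 409.8 and 540.4 CPM. MDH1 (4.01), PC (3.02), IDH3A (2.77) and DLD (2.69) rose, and the values of DLAT (0.06), ACO1 (-0.88), OGDH (-0.12), FH (-0.31) and ACLY (0.32) were not called, though ACO1 fell past the test without transcriptome A (-1.38).

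**Figure D3:**
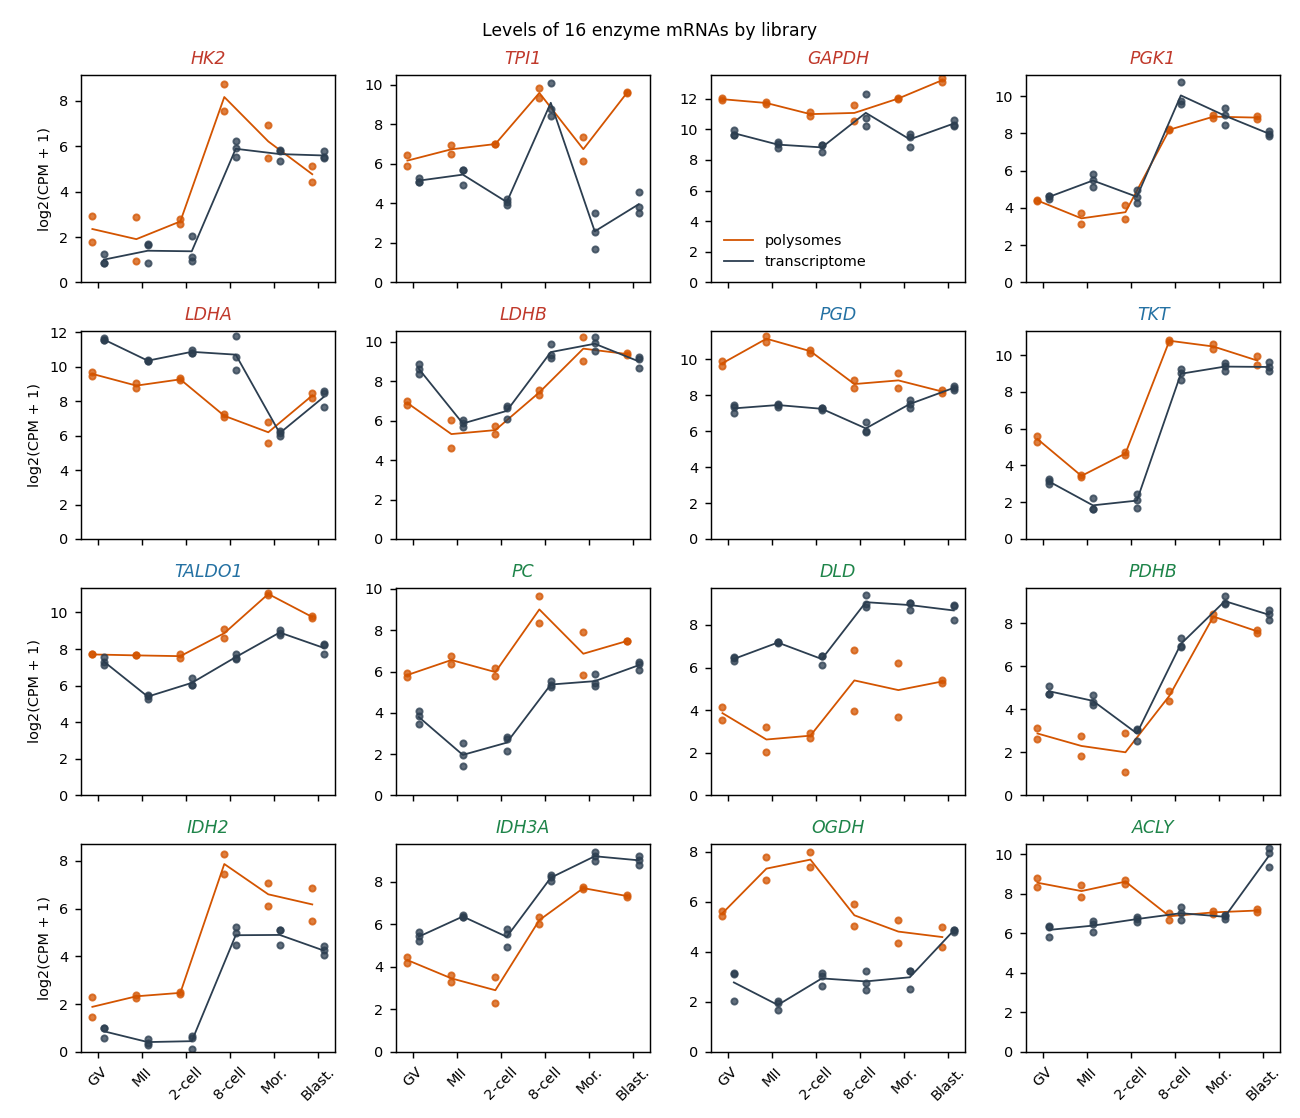
Log2(CPM + 1) of 16 members by stage, with 1 point per library for polysomes and transcriptomes and lines through the group means. TKT, PGK1, PDHB and IDH2 step up between the 2-cell and 8-cell stages, and LDHA drops in the transcriptome between the 8-cell stage and the morula.

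From 8-cell to morula the pathways parted. Of the glycolytic members 8 fell and 0 rose (median -1.64), while 3 pentose phosphate and 6 citrate cycle members rose and 0 of either fell. Together 9 rose and 8 fell, against 6.6% and 7.75% of all genes. Without the 8-cell transcriptome A, 5 glycolytic members fell (median -0.82) and 9 members again rose. TPI1 fell from 1103, 341 and 435 to 2.24, 10.3 and 4.96 CPM (-6.74 ± 0.56 SE, adjusted p = 3.43e-08) and LDHA from 3479, 894 and 1485 to 77.2, 71.3 and 61.9 CPM (-4.8 ± 0.4 SE, adjusted p = 3.43e-08). ENO1, an enolase, fell from 2556, 609 and 858 to 96.3, 103 and 77.2 CPM (-3.86 ± 0.39 SE, adjusted p = 5.46e-07). All 3 fell without library A too (-6.05, -4.08 and -2.99). HK1 fell as well (-1.68 ± 0.38 SE), from 94.2, 32.97 and 45.4 to 20.7, 16.1 and 17.02 CPM, and was not called without library A (-1.13). The largest rises were PDHB (1.99 ± 0.4 SE), IDH1 and PDHA1 (1.56 ± 0.39 SE).

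From morula to blastocyst 16 members rose and 4 fell, against 10.2% and 11.4% of all genes. Glycolysis held 9 of the rises and 2 of the falls. PFKL (3.32 ± 0.99 SE), ACLY and PKM (2.35 ± 0.43 SE) had the largest rises. ACLY went from 119, 115 and 106 to 661, 1062 and 1248 CPM in the transcriptomes (3.13 ± 0.27 SE, adjusted p = 3.03e-08) after values of 94.2, 106 and 113 CPM in 2-cell and 162, 99.2 and 131 CPM in 8-cell embryos. LDHA returned from 77.2, 71.3 and 61.9 to 203, 348 and 389.9 CPM (2.16 ± 0.36 SE). The falls were ALDOC, the aldolase known from brain, from 60.1, 72.4 and 84.8 to 23.5, 12.8 and 16.2 CPM (-2.05 ± 0.4 SE, adjusted p = 5.42e-04), and RPIA, RPE and PGK1. Without the morula transcriptome C 13 members were called in place of 20.

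Measured directly from 2-cell to morula, which leaves the 8-cell libraries out of the contrast, 24 members rose and 7 fell in the transcriptome, against 27.6% and 26.4% of all genes. Glycolysis had 8 rises and 3 falls (median 1.68), the pentose phosphate pathway 4 and 0, and the citrate cycle 12 and 4 (median 1.94). In the polysomes 24 rose and 8 fell, against 25.8% and 29.7% of all genes, with 7 and 2 in glycolysis (median 1.02), 4 and 1 in the pentose phosphate pathway and 13 and 5 in the citrate cycle (median 1.58).

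Few polysome changes were called before the 2-cell stage. From GV to MII 3 members rose and 3 fell, against 3.03% and 2.33% of all genes. OGDH rose from 42.2 and 48.99 to 219 and 115 CPM (1.87 ± 0.5 SE, adjusted p = 0.0283) and PGD from 974 and 799.9 to 2545 and 2036 CPM (1.37 ± 0.28 SE), with PGAM1 the other. MDH1 (-2.15 ± 0.41 SE), TKT (-2.12 ± 0.32 SE) and LDHB (-1.43 ± 0.41 SE) fell. With totals as the only scaling 0 rose and 7 fell, and without the GV gradient A 3 members were called and without B 2. From MII to 2-cell 3 rose (ALDOA, TKT and CS) and 3 fell (PDHA1, PGLS and IDH3B), against 3.37% and 5.14%, and TKT went from 9.4 and 10.2 to 25.7 and 22.6 CPM (1.3 ± 0.31 SE). With totals only, 4 rose and 0 fell, and 1 member was called without the MII gradient B and 3 without either 2-cell gradient. Each of the 6 calls was lost without at least 1 of the 4 gradients.

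From 2-cell to 8-cell 23 members rose and 10 fell on polysomes, against 21% and 25.2% of all genes. The rises were 8 in glycolysis, 4 in the pentose phosphate pathway and 11 in the citrate cycle, and the falls 3, 1 and 6. TKT rose from 25.7 and 22.6 to 1845 and 1682 CPM (6.19 ± 0.38 SE, adjusted p = 7.39e-11), HK2 from 5.92 and 4.98 to 188 and 430.1 CPM (5.82 ± 0.83 SE, adjusted p = 5.64e-06) and IDH2 from 4.39 and 4.74 to 173 and 314 CPM (5.74 ± 0.66 SE, adjusted p = 3.49e-07). The 2 gradients of each stage lay well apart from those of the other for all 3. IDH3B (4.71 ± 0.38 SE), PGK1 (4.47 ± 0.43 SE), PDHB (2.65 ± 0.5 SE) and PFKL (2.97 ± 1.18 SE) also rose. GAPDH was at 2196 and 1879 CPM in 2-cell and 1495 and 3078 CPM in 8-cell pools (0.17 ± 0.44 SE, adjusted p = 0.799), so that its transcriptome rise had no counterpart past the test in the polysomes. PFKP was at 6.14 and 14.6 CPM in 2-cell and 0 and 54.5 CPM in 8-cell pools, with the 8-cell gradients far apart. HK1 fell from 154 and 177 to 36.9 and 59.7 CPM (-1.78 ± 0.47 SE, adjusted p = 0.00354), LDHA from 594 and 638 to 132 and 151 CPM (-2.12 ± 0.43 SE, adjusted p = 3.9e-04) and PGD from 1335 and 1481 to 462 and 337 CPM (-1.82 ± 0.28 SE). LDHB rose from 51.6 and 39.3 to 191 and 156 CPM (1.93 ± 0.42 SE).

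In the citrate cycle polysomes of the same interval, CS fell from 803 and 771 to 313 and 214 CPM (-1.58 ± 0.27 SE) and ACLY from 418 and 363 to 102 and 129.6 CPM (-1.75 ± 0.32 SE). OGDH, DLST, ACO1 and SUCLG2 were the other falls (-2.58 to -2.11). IDH1 rose from 13.7 and 9.94 to 33.1 and 28.1 CPM (1.37 ± 0.37 SE) and PDHA1 from 8.28 and 15.3 to 13.3 and 58.5 CPM (1.61 ± 0.48 SE). PDK1 was at 25.9 and 21.7 CPM in 2-cell and 10.5 and 20.1 CPM in 8-cell pools (-0.64 ± 0.47 SE, adjusted p = 0.27). Its 8-cell mean was lower, but the change was not called.

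**Figure D4:**
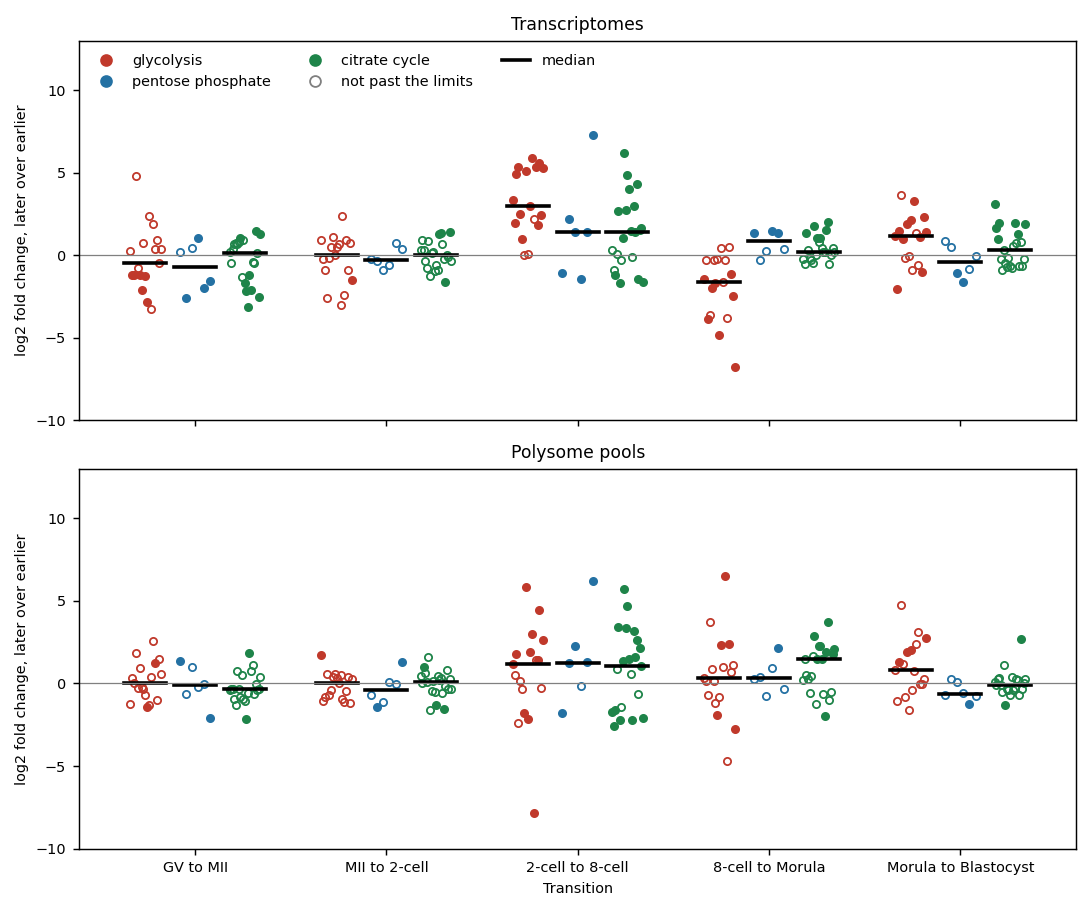
Log2 change of each member from stage to stage in transcriptomes and polysomes, by pathway, with 1 point per member, filled where the change passed an adjusted p under 0.05 and 2-fold and open where it did not, and a bar at the pathway's median. The glycolytic transcriptome has a median of 3.0 from 2-cell to 8-cell and of -1.64 from 8-cell to morula, the step in which the citrate cycle polysomes have a median of 1.48.

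From 8-cell to morula 13 members rose and 3 fell on polysomes, against 18.5% and 17.7% of all genes, and 9 of the rises were in the citrate cycle (median 1.48). PDHB rose from 28.2 and 19.9 to 339.8 and 292 CPM (3.72 ± 0.52 SE, adjusted p = 1.19e-05) and IDH1 from 33.1 and 28.1 to 129 and 312 CPM (2.85 ± 0.39 SE). PFKM, with 0 reads in the 8-cell pools and 0 and 1.21 CPM in morulae, counts among the rises, but its call rested on the morula gradient B and was also lost without either 8-cell gradient. PGAM1, LDHB, TALDO1, MDH1, IDH3B, SUCLG2, PDHA1, SUCLG1, IDH3A and MDH2 were the other rises, and TPI1 (-2.76 ± 0.56 SE), PC (-1.95 ± 0.51 SE) and HK2 (-1.91 ± 0.69 SE) fell. With totals as the only scaling 13 rose and 8 fell. From morula to blastocyst 5 rose and 2 fell, against 5.79% and 8.13% of all genes. TPI1, PDK1, LDHA, HK1 and ENO1 rose, by 1.32 to 2.76, and IDH1 and TALDO1 fell. PDK1 rose from 3.37 and 11.6 to 46.1 and 52.7 CPM (2.72 ± 0.5 SE, adjusted p = 0.00103).

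Whether polysomes and transcriptome changed by different amounts was tested as an interaction. From GV to MII the polysome change exceeded the transcriptome change for 9 members and fell short of it for 4, against 7.14% and 3.5% of all genes. OGDH had the largest excess (3.09 ± 0.66 SE, adjusted p = 0.00289), from a transcriptome that fell and a polysome share that rose, and PC was next (2.82 ± 0.67 SE, adjusted p = 0.00683). MDH2, SUCLG1, GPI, PGLS, HK1, TALDO1 and PGD were the others above, and PGK1, IDH3A, IDH1 and RPIA those below. For 8 of the 9, all but PGD, the transcriptome fell past the test over the same step. Without the GV gradient A 8 were called, and PC (2.73) was not among them. From MII to 2-cell 0 were called, against 0.725% and 1.08% of all genes, with 13 members at an unadjusted p under 0.05 in edgeR's quasi-likelihood test and 1 called each by its likelihood ratio test and by DESeq2.

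From 2-cell to 8-cell 1 member had a larger change on polysomes and 11 a smaller one, against 3.45% and 8.72% of all genes. Glycolysis held 8 of the 11, with a median difference of -2.21 over its 17 members. ENO1 was at 44.6, 43.3 and 43.2 CPM in 2-cell and 2556, 609 and 858 CPM in 8-cell transcriptomes, but at 337 and 286 CPM and then 887 and 1240.4 CPM on polysomes, a difference of -3.17 ± 0.57 (SE, adjusted p = 8.86e-04). PFKM, with 0 reads in the 8-cell pools, PKM, TPI1, GAPDH, ALDOA, LDHA and HK1 were the other glycolytic members, and MDH1, OGDH and ACLY those of the citrate cycle. The 1 member with the larger polysome change was RPIA (1.27 ± 0.32 SE). Without the 8-cell transcriptome A 8 fell short, of which 6 were glycolytic (median -1.49), and the differences of ENO1 and GAPDH were -2.3 and -1.49. Without the 8-cell gradient A 7 members were called in place of 12, and GAPDH (-1.92) was not among them.

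The reverse followed from 8-cell to morula, with 11 members above and 2 below, against 7.06% and 5.41% of all genes, and 9 of the 11 in glycolysis (median 1.92). These 2 steps share the 8-cell libraries. TPI1 (3.99 ± 0.72 SE, adjusted p = 8.02e-04) and LDHA (3.96 ± 0.56 SE, adjusted p = 7e-05) had the largest differences, and PGD and PC were the 2 below. LDHA was at 132 and 151 CPM and then 46.8 and 111 CPM on polysomes while its transcriptome went from 3479, 894 and 1485 to 77.2, 71.3 and 61.9 CPM. Without transcriptome A 9 were above and 1 below, with 8 of the 9 in glycolysis (median 1.53), and TPI1 and LDHA differed by 3.3 and 3.25. From morula to blastocyst 2 were above and 5 below, against 6.04% and 6.24% of all genes. ACLY (-3.04 ± 0.41 SE, adjusted p = 1e-04) rose in the transcriptome with its polysome values at 139.9 and 124 CPM in morulae and 147 and 135 CPM in blastocysts, and OGDH (-2.21 ± 0.64 SE, adjusted p = 0.0265) did likewise. PDK1 and RPIA were the 2 above, and with DESeq2's size factors in place of TMM 1 was above and 5 below. Without either blastocyst gradient, any 1 of the morula transcriptomes, or the blastocyst transcriptome B or C, 2 to 4 members were called in place of 7.

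How far single libraries decided the calls was counted by leaving out each library of the 2 stages or groups in turn. Of the polysome calls against the transcriptome, 9 of 28 at the GV stage, 9 of 38 at MII, 7 of 34 at 2-cell, 5 of 29 at 8-cell, 6 of 27 at the morula and 9 of 28 at the blastocyst stage were lost at least once. Of the 11 members called at all 6 stages, GPI, ALDOA, ALDOC, PGLS and DLD kept every call. IDH3A and MDH2 lost theirs in GV oocytes, SUCLA2 in GV oocytes and 8-cell embryos, RPE in 8-cell embryos and blastocysts, IDH2 in GV oocytes, morulae and blastocysts, and PC in morulae and blastocysts. The difference of PC in morulae was 1.66 with both gradients and 0.27 without gradient B. Of the transcriptome calls from 2-cell to 8-cell 6 of 36 were lost at least once, and of the polysome calls 9 of 33. The other calls lost included the polysome rises of OGDH (1.32 without the MII gradient A) and the fall of LDHB (-0.88 without the same gradient) from GV to MII, the polysome rise of PFKL from 2-cell to 8-cell (2.39 without the 8-cell gradient B) and the interaction of OGDH from morula to blastocyst (-1.65 without the morula gradient B).

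Within the gradients, heavy (F8 to F10) and light (F3 to F5) pools of the same gradients were compared, a contrast that does not use the transcriptomes. In GV oocytes 0 members were called, against 0.316% of all genes higher and 0.182% lower, with 13 members at an unadjusted p under 0.05 in edgeR's quasi-likelihood test, 0 by its likelihood ratio test and 7 by DESeq2. In MII oocytes PGAM1 was lower in the heavy pool (-2.2 ± 0.44 SE, adjusted p = 0.0341), against 0.262% and 0.175%, and it was lost when either MII gradient was left out. In 2-cell embryos 0 members and 0% of all genes were called, with 8 members at an unadjusted p under 0.05 and 0 by the likelihood ratio test or DESeq2.

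In 8-cell embryos 8 members were higher in the heavy pools and 3 lower, against 4.55% and 4.8% of all genes. TPI1, ENO1 and PGK1 of the triose steps, PGLS, TKT and RPE of the pentose phosphate pathway and IDH3A and SUCLG1 of the citrate cycle were higher, RPE by the most (2.51 ± 0.65 SE, adjusted p = 0.0253) and IDH3A next (2.41 ± 0.68 SE, adjusted p = 0.036). OGDH (-2.32 ± 0.56 SE, adjusted p = 0.0188), ACLY (-2.05 ± 0.41 SE, adjusted p = 0.0088) and PGD (-1.57 ± 0.35 SE, adjusted p = 0.0133) were lower. With totals as the only scaling 13 were higher and 2 lower. Without gradient A 1 member was called and without gradient B 4, and each of the 11 calls was lost in 1 of these settings or both. In morulae 5 were higher and 0 lower, against 0.699% and 0.888%, namely TPI1 (2.43 ± 0.52 SE, adjusted p = 0.0308), PGK1, TALDO1, TKT and IDH3B, while 3 to 9 members were called without 1 gradient and each of these 5 calls was lost without one or the other. In blastocysts SUCLG1 (1.83 ± 0.43 SE, adjusted p = 0.0415) and TALDO1 (1.56 ± 0.37 SE, adjusted p = 0.0441) were higher, against 0.8% and 0.632%, and neither was called with the gradient as a block or without either gradient. RPE and IDH3A, lower in polysomes than in transcriptomes at every stage, were thus among the members that sat heavier on the 8-cell gradients.

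Single fractions showed where each mRNA peaked. Peaks were not counted over all genes, so the counts are not read as particular to the members. The fraction libraries held 1229382 to 17342859 reads, the fewest in F1 of morula gradient A. In GV oocytes 14 of the 44 members were highest in F1 or F2 in both gradients, 14 in F8 to F10 in both, 7 in F3 to F5 and 9 in different parts of the 2 gradients. Glycolysis supplied 8 of the 14 light peaks and the citrate cycle 10 of the 14 heavy ones. ENO2, at 0 CPM in every GV fraction, counts among those light peaks only because members with no reads were placed in F1. GAPDH in GV oocytes reached 75739.5 and 50250.1 CPM in F2 of the 2 gradients, against 997, 803 and 788 CPM in the transcriptomes, and F8 to F10 had gradient means of 3048 to 4660 CPM. In the pool of F1 and F2 ALDOA, GAPDH, ENO1 and TPI1 were above the GV transcriptomes by 7.64, 5.51, 3.42 and 2.52 on the log2 scale. DLD and IDH3A in the same oocytes had gradient means of 0.609 and 0.257 CPM in F1 and of 21.3 and 24.5 CPM in F10. In morulae 20 members peaked in F8 to F10 in both gradients and 1 in F1 or F2, and GAPDH rose there from a mean of 1677 CPM in F1 to 3952 CPM in F10. At MII and at the 2-cell stage 26 and 24 members had peaks that differed between the gradients. ENO2 was among them at both stages, with 0 CPM in all of gradient A.

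**Figure D5:**
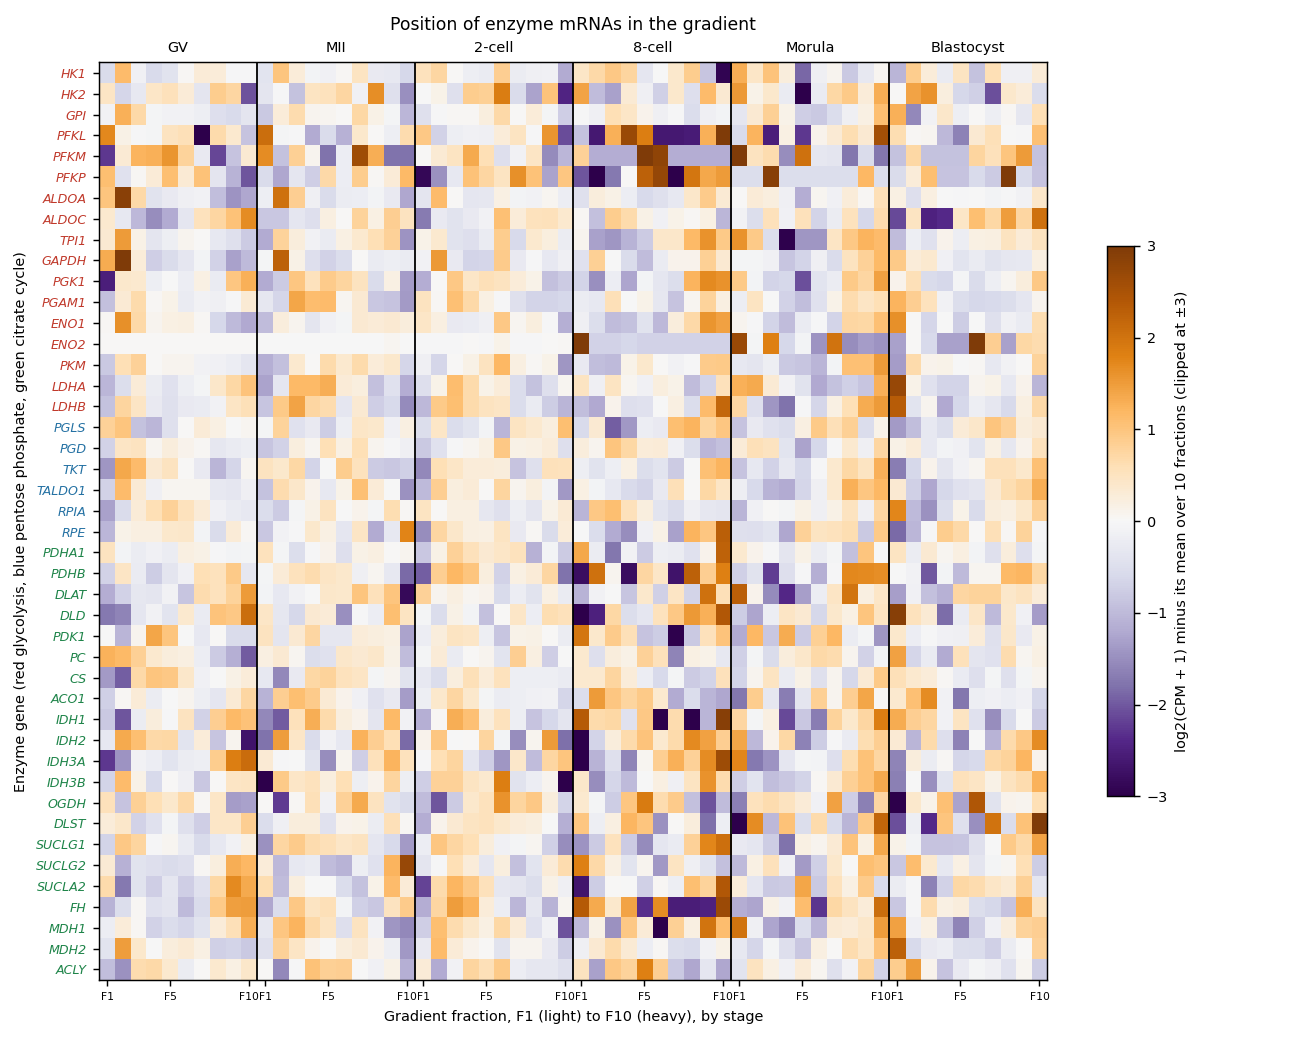
Log2(CPM + 1) of the 44 members (rows, by pathway) in fractions F1 (light) to F10 (heavy) of each stage (blocks of columns), as the mean of the 2 gradients minus the member's mean over the 10 fractions, orange where above that mean and purple where below. In GV oocytes GAPDH is orange in F2, where it reached 75739.5 and 50250.1 CPM, and DLD and IDH3A are purple in F1 and orange in F10.

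Where a step has more than 1 gene, the balance between them was taken as the log2 ratio of CPM + 0.5 within each library. CPM are not per transcript length, so a ratio is read here only against the same ratio at other stages or in the other kind of library. HK1 to HK2 fell from 4.77 ± 0.77 (SD, n = 3) in 2-cell transcriptomes to -0.15 ± 1.14 in those of 8-cell embryos, and from 4.81 ± 0.3 (n = 2) to -2.59 ± 0.36 in polysomes. The mean hexokinase balance had thus moved toward HK2 by the 8-cell stage in both kinds of library. In blastocysts it was 0.48 ± 0.14 and 1.6 ± 0.4. LDHA to LDHB went from 4.37 ± 0.33 in 2-cell transcriptomes to 1.22 ± 0.7 at the 8-cell stage, -3.77 ± 0.29 in morulae and -0.77 ± 0.62 in blastocysts. On polysomes, at the same 4 stages, the ratio was 3.76 ± 0.35, -0.29 ± 0.34, -3.47 ± 1.74 and -1.06 ± 0.26. The lactate dehydrogenase balance was thus farthest toward LDHB in morulae in both kinds of library.

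In the citrate cycle the cytosolic and mitochondrial forms sat apart between the kinds of library. IDH1 to IDH2 was 6.54 ± 0.36 in 2-cell transcriptomes against 1.27 ± 0.39 in polysomes, and 2.44 ± 0.11 against -2.92 ± 0.77 in 8-cell embryos. In blastocysts it was 4.47 ± 0.09 against 0.3 ± 1.4. MDH1 to MDH2 lay between -1.73 and 1.39 in the transcriptomes and between -4.22 and -1.45 on polysomes, with the polysome mean below the transcriptome mean at all 6 stages. Polysomes therefore held relatively more of the mitochondrial form of both enzymes than the transcriptomes did. The lighter pools leaned the same way at every stage, so the shift was not particular to F8 to F10. In GV oocytes IDH1 and IDH2 differed from the transcriptomes by -1.1 and 3.95 in F3 to F5. In F1 and F2 the values were -2.88 and 3.43. SUCLG2 to SUCLA2, the GTP-linked and the ATP-linked beta subunit of succinyl-CoA ligase, fell from 0.78 ± 0.2 in 2-cell to -2.42 ± 0.71 in 8-cell transcriptomes and from 1.33 ± 0.29 to -2.87 ± 0.74 on polysomes. ALDOA to ALDOC was -1.74 ± 0.24 in GV transcriptomes, 2.27 ± 0.26 at the 8-cell stage, 1.12 ± 0.75 in morulae and 4.38 ± 0.32 in blastocysts. On polysomes it was 0.37 ± 0.67 in GV and -1.31 ± 0.61 in MII oocytes and 4.25 ± 0.13 in blastocysts. These ratios are descriptions with no test, and GAPDH, LDHA, ENO1, PGK1, PGAM1, TPI1 and ALDOA may share reads with processed copies elsewhere in the genome, which makes their levels uncertain.

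Genes around these pathways, in lists chosen with earlier results of these data known, were counted in the same fits. From 2-cell to 8-cell 10 of 14 tested glucose, lactate and pyruvate carriers rose in the transcriptome and 0 fell, with a median of 2.6, against 26.6% and 23.5% of all genes, and without the 8-cell transcriptome A 8 rose and 1 fell (median 2.44). SLC2A5, a fructose carrier, was at 0 to 0.0761 CPM in 2-cell and 18.9 to 53.1 CPM in 8-cell transcriptomes, and SLC16A7, a monocarboxylate carrier, had 0 reads and then 0.609 to 3.34 CPM, at least 6.73-fold higher. The highest of these is library A, with 39 of the 8-cell reads against 8 and 7, and without it the bound is 2.87-fold. SLC2A3, a high-affinity glucose carrier named here after its values were seen, was at 4.44 to 8.37 CPM in 2-cell and 351 to 628 CPM in 8-cell transcriptomes, and at 11.7 to 20.5 CPM and then 1578 to 1652 CPM in polysomes. Of 7 glycolytic regulators 3 rose and 2 fell (3 and 1 without A), among them MYC, a transcription factor (12.8 to 18.01 CPM in 8-cell embryos after 3 reads in all 2-cell transcriptomes), and TIGAR, a fructose bisphosphatase, which fell by 2.61.

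Of 23 other glycolytic and gluconeogenic genes 5 rose and 4 fell with or without transcriptome A, neither share above that of all genes, with PYGL, a glycogen phosphorylase, at 0.301 to 0.380 CPM in 2-cell and 79.8 to 145 CPM in 8-cell transcriptomes. FBP2, a fructose bisphosphatase, had 0 reads and then 0.087 to 2.06 CPM, at least 5.29-fold higher, with 24 of its 8-cell reads in library A, and at least 3.48-fold without it. Of 9 other pentose phosphate genes 4 rose and 2 fell, against 26.6% and 23.5% of all genes (3 and 1 members of the list without A). PRPS1, which makes phosphoribosyl pyrophosphate from ribose phosphate, was at 4.79 to 5.79 CPM in 2-cell and 1262 to 2016 CPM in 8-cell transcriptomes, and at 1.64 to 7.94 CPM and then 996 to 1599 CPM in polysomes. RBKS, a ribokinase, was at 0 to 0.16 CPM and then 9.13 to 20.6 CPM in transcriptomes. Of 24 other pyruvate and citrate cycle genes 5 rose and 5 fell with or without A, near the shares of all genes (26.6% and 23.5% with A). OGDHL, a relative of OGDH, fell and was at 5.52 to 10.6 CPM and then 0.269 to 0.609 CPM. SDHD, a membrane subunit of succinate dehydrogenase, rose and was at 18.9 to 20.2 CPM and then 296 to 339 CPM.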

How the data were processed

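Sequencing libraries of 120 gradient fractions and 18 transcriptomes were analysed, and each library was placed in its group by its label. The authors prepared cDNA with a SMART-Seq kit and a Nextera library kit and deposited expected counts per gene, made with Salmon, of which 11.7% were not whole. The bovine build is named as UMD3.1 in the submitters' processing notes and as ARS-UCD1.2 in the study's methods, and no coordinate was used. How reads shared by similar genes were split is not given in the sources used here.

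Counts were rounded, F8 to F10 were summed per gradient, and 12 groups (30 libraries) were fitted together with edgeR 4.0.16 in R 4.3.3 (TMM factors, filterByExpr, quasi-likelihood F test, two-sided, Benjamini-Hochberg adjustment over all 14612 genes tested). Heavy and light pools had a fit of their own (24 pools, 14873 genes). An SE is the log2 difference divided by the square root of F. Changes between stages were called at an adjusted p under 0.05 and a fold above 2, and all other contrasts at an adjusted p under 0.05. CPM used TMM-scaled library sizes. Where a group had no read, folds used a floor of 3 counts per library. The fits were run on simulated counts with known changes, where all other genes kept the same mean in every group. In these data many genes differ between stages and kinds of library, so the simulation does not give error rates for them.

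The alternatives were edgeR's likelihood ratio test, DESeq2 1.42.0, RLE factors (DESeq2's size factors in edgeR), library totals only, no filter, thinning of all libraries to 3269385 reads, F9 and F10 as the pool, a replicate block, and leaving out each library. Pools of F3 to F5 and of F1 and F2, the direct 2-cell to morula contrast, and the other gene lists and lighter pools without the 8-cell transcriptome A were added after seeing the data. The members and all gene lists were chosen with earlier results of these data known. Each member is named, with values in every library by a rule on size of change and for 13 listed enzymes. No pair of libraries in a group held identical counts (0 of 78 pairs).

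The letters A and B of gradients and transcriptomes mark different oocytes or embryos. Heavy and light pools of a letter come from the same gradient, and their deviations correlated at -0.08 to 0.17 over the stages. The study describes the gradients as biological replicates of a repeated experiment and the transcriptome pools as taken from the batches used for them. Which pool shared a batch with which gradient, and whether the 3 pools of a stage came from separate cultures, is not given in the sources used here, so p-values measure the spread between these libraries, which for the transcriptomes may be technical.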

Additional observations from a re-analysis of the deposited data

Results flagged for a closer look

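Members for which polysomes and transcriptome changed by different amounts between 2 stages, by the interaction term of edgeR's quasi-likelihood fit at an adjusted p under 0.05, are listed here. From GV to MII 13 members differed, with OGDH (3.09) and PC (2.82) the largest. From 2-cell to 8-cell 12 differed, with ENO1 at -3.17 and PFKM at -10.04. PFKM had 0 reads in the 8-cell pools, so its fitted value depends on the prior count and is not a bound. From 8-cell to morula 13 differed, with TPI1 at 3.99 and LDHA at 3.96. From morula to blastocyst 7 differed, with ACLY at -3.04 and OGDH at -2.21. The 2 steps that meet at the 8-cell stage share its libraries, and their values without the 8-cell transcriptome A stand in the report.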

How the results depend on the processing

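Of 349 alternative counts for 27 results, 301 stayed within 1.5 times the reported count. Against the transcriptome the exception was the pool of F1 and F2 in blastocysts (16 called, 28 reported). With library totals only, 8 transcriptome calls from MII to 2-cell (5 reported) and 3 heavy against light calls in morulae (5 reported) were made. Thinning gave 2 polysome calls from MII to 2-cell (6 reported), and 8, 8 and 3 interaction calls from GV to MII (13 reported), 8-cell to morula (13 reported) and morula to blastocyst (7 reported). The pool of F9 and F10 gave 8 and 4 interaction calls from GV to MII and from morula to blastocyst. From MII to 2-cell the interaction, with 0 calls reported, had 1 by the likelihood ratio test, 1 by DESeq2 and 1 with no filter.

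Heavy against light pools depended most on the test. DESeq2 called 7, 7, 19, 12 and 4 members in GV, MII, 8-cell, morula and blastocyst gradients (0, 1, 11, 5 and 2 reported), and the likelihood ratio test 17 at the 8-cell stage and 12 in morulae. In blastocysts no filter gave 1 and the replicate block, which pairs the pools of a gradient, gave 0. The cause of these differences was not tested.

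Leaving out single libraries gave, as the lowest and highest counts, 3 to 6 and 13 to 17 transcriptome calls from MII to 2-cell and morula to blastocyst, and 2 to 6 and 1 to 4 polysome calls from GV to MII and MII to 2-cell. Interaction calls ranged from 8 to 13, 0 to 1, 7 to 14, 10 to 18 and 2 to 7 over the 5 steps from GV to MII onward. Heavy against light calls ranged from 1 to 4 at the 8-cell stage and 3 to 9 in morulae, and were 0 in MII oocytes and blastocysts.

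Of 413 called values for single members, 2925 of 3148 alternative values not leaving out a library kept the call, and 1884 of 2262 with a library left out did. PFKM in MII polysomes was reversed in the pool of F9 and F10 (-3.85) and without the MII polysome replicate B (-1.51), against 4.68 with both gradients and 5.61 without replicate A. In the fit against transcriptomes a replicate block by letter gave 27, 36, 32, 29, 27 and 27 calls from GV oocytes to blastocysts. Same-lettered samples correlated at -0.07 to 0.04. Pools known to share a gradient correlated at only -0.08 to 0.17, so such values cannot decide whether the letters pair samples. The sources used here give no such pairing, and the main fit used none. The block changed no other count by over 1.5 times. With 2 gradients and 3 transcriptomes a group, and 7 reads or fewer for PFKL and PFKP in some groups, small changes of low members were not detectable at this depth.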
